A study of Mus musculus with 12 samples.

Results

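Mitochondria carry their own ribosome, which makes the 13 proteins encoded in mitochondrial DNA, all of them subunits of the respiratory chain or of ATP synthase. Its ribosomal RNAs come from the mitochondrial genome, whereas its proteins are encoded in the nucleus, made in the cytoplasm and imported. The proteins of the large subunit carry the name Mrpl and those of the small subunit Mrps. Some have a counterpart in the bacterial ribosome and others are found in mitochondria alone. Sensory neurons, with their long axons, are known for a high demand on mitochondrial energy supply.

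The genes were chosen by symbol, as protein-coding mouse genes named Mrpl or Mrps followed by a number and, for a few, a letter a to c. This gave 78 genes, 49 Mrpl and 29 Mrps, of the 13178 genes in the table of one experiment and the same 78 of 21650 genes in that of the other. Some names are older than the structures. Mrps30 and Mrps18a are known to sit in the large subunit, and Mrps36 is now assigned to the oxoglutarate dehydrogenase complex, but all were counted by name.

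RNA came from dorsal root ganglion neurons of lumbar levels L4-6, which send axons into the sciatic nerve, of C57BL/6J mice aged 8 weeks. All mice had a spinal cord injury 72 h earlier, and no group without injury was analysed here. In one experiment, adeno-associated virus carrying transketolase (AAV-TKT) or green fluorescent protein (AAV-GFP) had been given through the sciatic nerve 4 weeks before. The gene Tkt encodes transketolase, which acts in the pentose phosphate pathway. In the other experiment, mice received 10% ribose (Ribose), a sugar of the same pathway, or vehicle alone (Vehicle). Each of the 4 groups held 3 libraries, and the sources used here do not say whether each came from a separate animal or what promoter drove the viral transgenes. If the libraries of a group shared animals, the p-values measure only technical spread. The values are FPKM, a fragment count scaled to transcript length and library size, which permits genes to be ranked within a table. Read depth is unknown.

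Tkt, the gene that the AAV-TKT virus carries, stood at 223, 259 and 262 FPKM in the AAV-TKT libraries, against 106.5, 101.7 and 98.1 FPKM in the AAV-GFP libraries. All 7 pan-neuronal markers were listed in both tables, with sums of 3808 to 5243 FPKM per library. Markers of other cells were present too. Satellite glia markers summed to 649 to 1095 FPKM in AAV-TKT and 946 to 1238 FPKM in AAV-GFP, and to 269 to 900.2 FPKM in Ribose and 624 to 1460 FPKM in Vehicle. In such bulk samples, fewer cells of a type and less RNA per cell cannot be told apart.

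The promoters of 69 of the 78 genes were found in a RefSeq table for GRCm38.p6, in 75 windows of 250 bases before to 50 bases after a start of transcription. They were searched on both strands for 5 short motifs of factors known to act on genes for mitochondrial proteins, or of promoters in general. The 4 windows printed here belong to genes among the smallest p-values of the comparisons that follow. They are examples that hold a match, and they do not stand for the other genes with small p-values. Capitals mark CCGGAAGT, the core of the ETS family that includes GABP, or AAGATGGC, the core of YY1, each on either strand. The core searched for NRF1 was CGCATGCG, which none of these 4 windows holds. The windows of Mrps9, Mrps14, Mrps30 and Mrpl2, also among the genes with small p-values, held no ETS, YY1 or NRF1 match.
Mrpl52, chr14:54426659-54426958, plus strand: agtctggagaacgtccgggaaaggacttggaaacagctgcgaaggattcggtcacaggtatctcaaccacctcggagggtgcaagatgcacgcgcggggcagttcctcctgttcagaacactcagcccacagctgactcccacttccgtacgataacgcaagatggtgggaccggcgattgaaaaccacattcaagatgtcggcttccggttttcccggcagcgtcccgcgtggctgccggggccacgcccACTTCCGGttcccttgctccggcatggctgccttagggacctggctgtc
Mrpl36, chr13:73330759-73331058, plus strand: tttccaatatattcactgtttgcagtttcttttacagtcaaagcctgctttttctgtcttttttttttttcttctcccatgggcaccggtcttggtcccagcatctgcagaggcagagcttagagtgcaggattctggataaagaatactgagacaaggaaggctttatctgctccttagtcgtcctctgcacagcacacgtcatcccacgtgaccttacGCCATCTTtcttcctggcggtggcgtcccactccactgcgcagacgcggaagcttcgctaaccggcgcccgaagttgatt
Mrps26, chr2:130563507-130563806, plus strand: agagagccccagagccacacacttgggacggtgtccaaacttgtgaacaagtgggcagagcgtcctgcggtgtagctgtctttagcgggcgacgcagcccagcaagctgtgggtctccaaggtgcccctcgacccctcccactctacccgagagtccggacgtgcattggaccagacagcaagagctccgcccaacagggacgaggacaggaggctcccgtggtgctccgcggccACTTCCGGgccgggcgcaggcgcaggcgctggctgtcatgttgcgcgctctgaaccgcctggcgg
Mrps27, chr13:99344536-99344835, plus strand: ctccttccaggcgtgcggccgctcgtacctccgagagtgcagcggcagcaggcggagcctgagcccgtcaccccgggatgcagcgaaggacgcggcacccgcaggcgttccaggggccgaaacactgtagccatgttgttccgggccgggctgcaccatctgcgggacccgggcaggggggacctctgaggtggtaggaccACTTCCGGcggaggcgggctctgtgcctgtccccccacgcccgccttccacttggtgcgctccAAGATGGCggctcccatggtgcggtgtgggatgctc

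The ETS match of Mrpl52 began at base 2 counted from the start, and that of Mrps26 ended 8 bases before it. Mrps27 held both an ETS match, which ended 42 bases before the start, and a YY1 match that began at base 15. The YY1 match of Mrpl36 ended 23 bases before the RefSeq start, and its window also held an E-box, CACGTG. Over the family, 16% of windows held the ETS motif, against 7.71% of the windows of genes in the AAV table and 3.89% of all windows. YY1 matches were in 16% of the family's windows, against 4.38% and 2.75%. For NRF1 the shares were 9.33%, against 3.77% and 1.87%. Of 12 ETS matches in the family 10 lay within 100 bases of the start, as did 10 of 12 YY1 matches and 5 of 8 NRF1 matches.

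An E-box was in 9.33% of the family's windows and in 9.65% of those of genes in the AAV table, and a TATAAA box in 6.67% and 6.99%. At least one of the ETS, YY1 and NRF1 motifs was in the window of 29 of the 69 genes, or 38.7% of the windows, against 14.8% in the AAV table. None of the 5 motifs contains another. These matches describe letters in a window and say nothing of binding.

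The genes lay on 17 chromosomes, 11 of them on chromosome 11. A divergent protein-coding neighbour, one that starts within 1000 bases on the opposite strand and runs away, was found for 18 of 78 genes (23.1%), against 10% of the protein-coding genes in the AAV table and 6.77% of all. Mrps12, the counterpart of bacterial S12 at the decoding centre, had as this neighbour Sars2, the mitochondrial seryl-tRNA synthetase. Mrps27 had Ptcd2, which encodes a mitochondrial RNA-binding protein. Mrpl46 and Mrps11 overlap each other on opposite strands of chromosome 7, so that both subunits draw a protein from that locus. In all, 36 genes overlap a gene on the other strand and 13 a gene on the same strand. The libraries were stranded, but whether the counting used strand is not given in the sources used here. Reads of those overlapping pairs may therefore be mixed. One of them is Mrpl36, which overlaps Ndufs6 on the other strand and has the smallest p in the ribose comparison below. Mrpl18 with Tcp1 and Mrps25 with Nr2c2 are other such pairs. Mrpl53 shared 84.4% of its 31-base words with the overlapping Gm42688, and Mrps34 shared 35.6% with Nme3, which makes the values of both uncertain. Mrpl22, Mrpl27 and Mrpl41 have a processed pseudogene elsewhere that shares over 20% of their words, and none of these pseudogenes is listed in either table.

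Most transcripts of the family were of similar level, and a few, Mrpl23 above all, were far lower. In AAV-TKT the median gene had 20.03 FPKM among Mrpl and 19.02 FPKM among Mrps, and in AAV-GFP the medians were 17.7 and 17.2 FPKM. In the AAV-GFP libraries, 44 of 49 Mrpl and 23 of 29 Mrps lay within 2-fold of their median. In Ribose they were 19.1 and 19.3 FPKM, and in Vehicle 21.3 and 20.5 FPKM. Genes not listed with a bacterial counterpart were counted as of mitochondria alone, which placed Mrps18a, Mrps18b and Mrps36 there. Proteins with a bacterial counterpart and those of mitochondria alone were at similar medians in AAV-GFP, with 17.1 and 18.7 FPKM among Mrpl and 17.7 and 16.7 FPKM among Mrps.

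**Figure D1:**
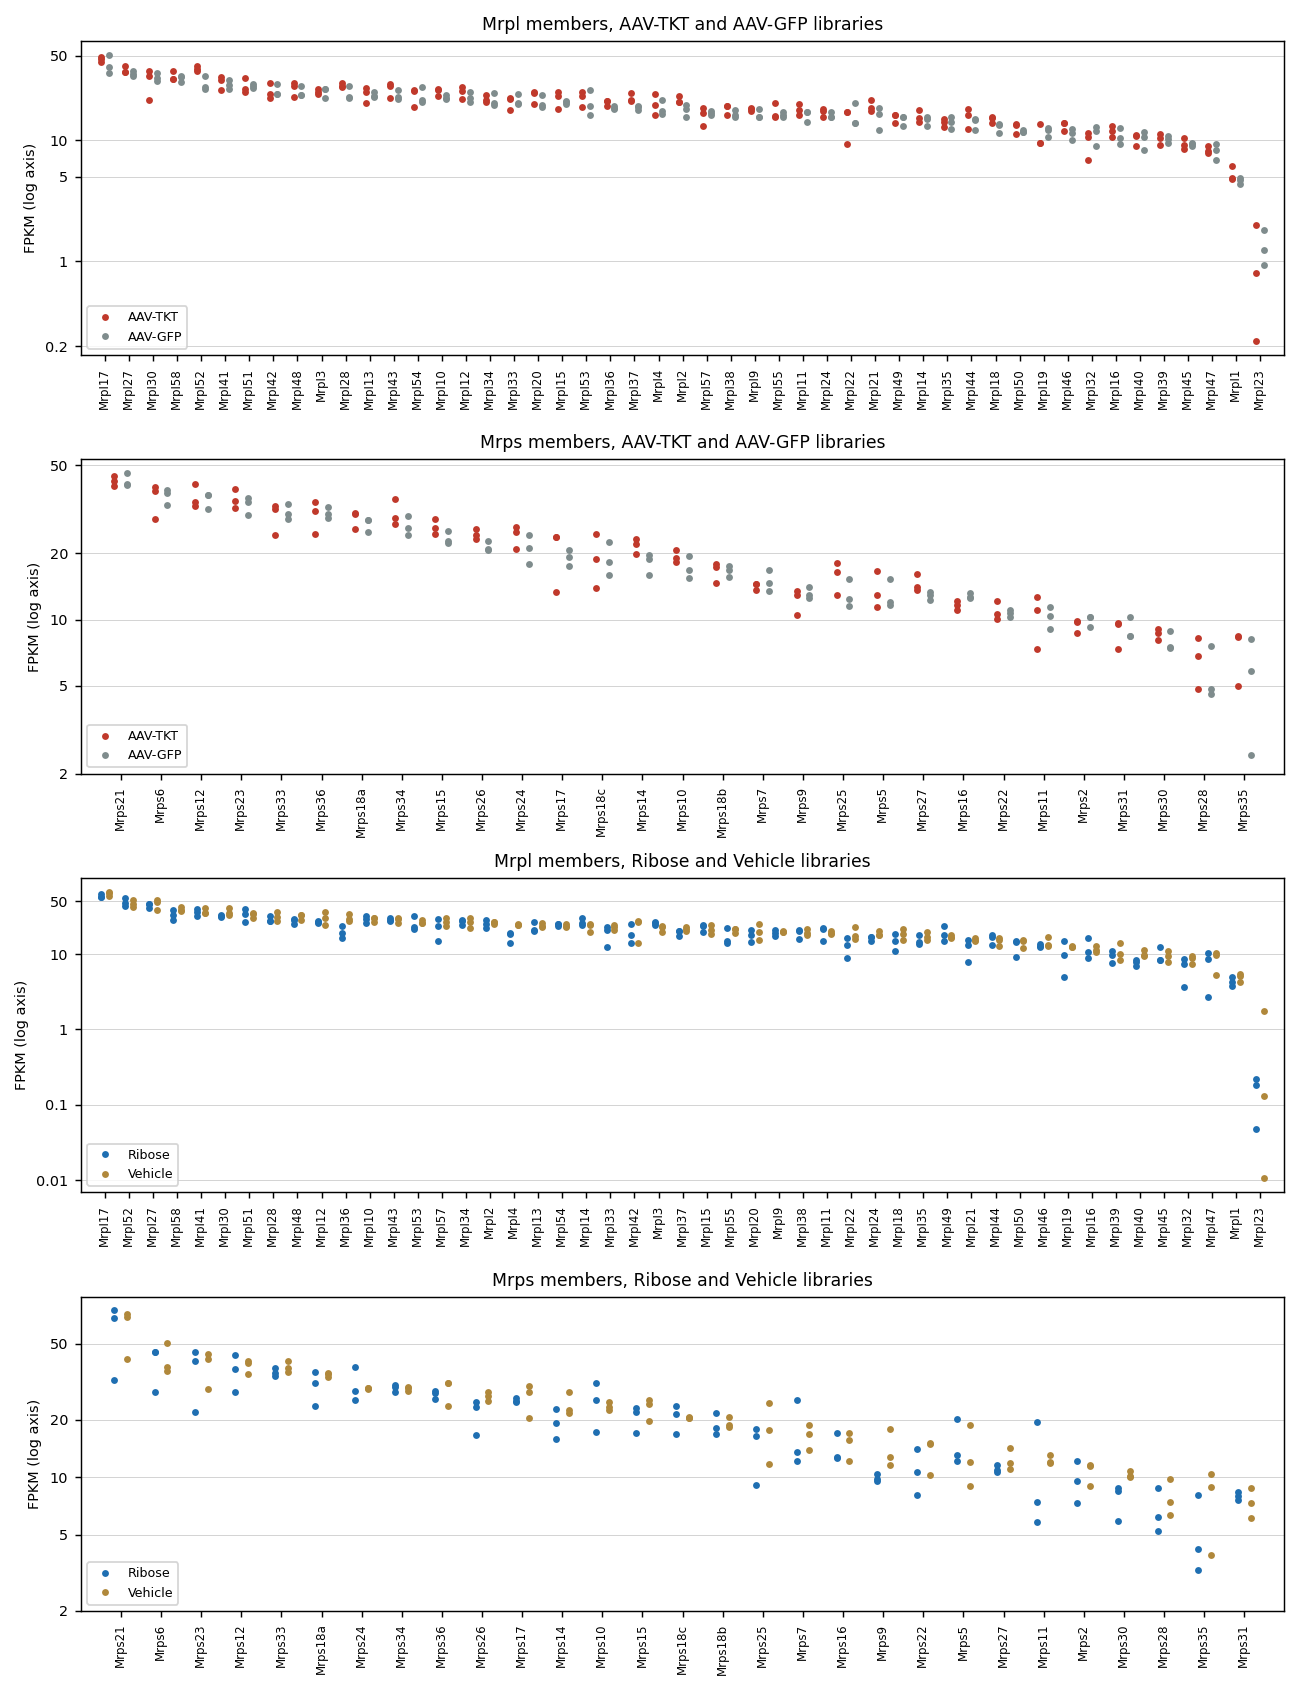
FPKM of each Mrpl and Mrps gene on a log axis, sorted by the mean of AAV-GFP (upper 2 panels) or Vehicle (lower 2 panels), with 1 point per library. Most genes lie between 10 and 50 FPKM in every group, and Mrpl23 stands lowest in all 4 groups.

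The highest and lowest genes were largely shared by the experiments. Across the 78 genes, the mean levels of AAV-GFP and Vehicle had a Spearman rho of 0.951, a description over genes measured with the same gene lengths. Mrpl17, counterpart of bacterial L17, was the highest Mrpl, with 42.4 ± 7.47 FPKM in AAV-GFP and 63.2 ± 3.41 FPKM in Vehicle (SD, n = 3). Mrpl27, counterpart of L27 near the peptidyl transferase centre, had 35.6 ± 1.75 and 46.6 ± 7.36 FPKM. Mrps21 was the highest Mrps, with 42.5 ± 3.01 and 60.7 ± 16.6 FPKM, and Mrps6 followed with 36.4 ± 2.95 and 41.4 ± 8.12 FPKM. The other leading genes were Mrpl30 and Mrps12 in AAV-GFP, with 33.3 ± 2.83 and 35.1 ± 2.9 FPKM, and Mrpl52 and Mrps23 in Vehicle, with 46.6 ± 4.79 and 38.3 ± 8.12 FPKM. Mrpl17 and Mrps21 did not differ beyond their spread in either control group, and neither did Mrps6 and Mrps12 in AAV-GFP.

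At the low end, Mrpl1, whose bacterial counterpart forms the mobile L1 stalk, had 4.63 ± 0.264 FPKM in AAV-GFP and 4.96 ± 0.597 FPKM in Vehicle. Mrpl47 had 8.16 ± 1.17 and 8.44 ± 2.8 FPKM. Mrps28 had 5.68 ± 1.66 and 7.87 ± 1.75 FPKM, and Mrps35 had 5.48 ± 2.88 and 7.75 ± 3.4 FPKM. The third lowest Mrps was Mrps30 in AAV-GFP, with 7.93 ± 0.804 FPKM, and Mrps31 in Vehicle, with 7.41 ± 1.33 FPKM. The low Mrps genes overlapped each other within their spread.

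Mrpl23, the counterpart of L23 at the exit of the peptide tunnel, stood apart from the family. It had 2.02, 0.221 and 0.8 FPKM in AAV-TKT, against 1.81, 1.25 and 0.933 FPKM in AAV-GFP. In the ribose experiment it had 0.219, 0.0482 and 0.185 FPKM in Ribose, against 0.0107, 1.73 and 0.131 FPKM in Vehicle. The groups overlapped in both experiments, and in the ribose table Mrpl23 fell below the mean of 1 FPKM required for testing, so that 77 of 78 genes were fitted there. In the AAV table all 78 were fitted. How reads were aligned and counted is not given in the sources used here, so the low level of Mrpl23 is uncertain.

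The 3 genes named Mrps18 encode related proteins with different places in the ribosome. Mrps18a had 23.5, 35.5 and 31.2 FPKM in Ribose, against 33.5, 35.3 and 34.5 FPKM in Vehicle. Ribose replicates 1 and 3 were below and replicate 2 just above every Vehicle library. The log2 difference was -0.21 (SE 0.161, adjusted p = 1.0 in limma). Mrps18b and Mrps18c differed by -0.05 and -0.01 in that comparison. In AAV-TKT against AAV-GFP the 3 differences were 0.08 for Mrps18a, -0.01 for Mrps18b and -0.01 for Mrps18c, and all overlapped between the groups.

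The first comparison asked how raised transketolase changed these transcripts in ganglia after injury. No Mrpl or Mrps gene passed an adjusted p of 0.05 in limma, where 0.0152% of all genes tested did (2 of 13178), and the lowest adjusted p in the family was 0.378. The gene with the smallest p was Mrpl52, a large-subunit protein of mitochondria alone. Differences leaned to higher values, with 39 of 49 Mrpl and 18 of 29 Mrps positive, against 53.7% of all genes, and the other 10 and 11 negative, against 46.3%. The median log2(FPKM + 1) difference was 0.087 for Mrpl and 0.031 for Mrps, against 0.014 over all genes. When library totals were made equal, the Mrpl median was 0.019 and the Mrps median turned to -0.035, where the median of all genes was -0.048. The Mrps median also turned to -0.035 without AAV-TKT replicate 2.

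At an unadjusted p under 0.05, 6 genes were on the higher side, 7.69% of the family, against 6.23% of all genes, and 0 on the lower side, against 4.36%. By the order of the libraries, 7 genes were higher in all 3 AAV-TKT libraries than in any AAV-GFP library (8.97% of the family), against 11.3% of all genes, and 1 was lower (1.28%), against 7.2%. These shares are near the background or below it.

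Mrpl52 had 41.0, 37.2 and 39.2 FPKM in AAV-TKT, against 33.9, 26.5 and 27.4 FPKM in AAV-GFP. The AAV-TKT libraries were all above the AAV-GFP libraries. The log2 difference was 0.41 (SE 0.101, unadjusted p = 0.00416, adjusted p = 0.378), a 1.34-fold ratio of means. Mrpl37, also of mitochondria alone, had 21.7, 24.4 and 21.3 FPKM in AAV-TKT, against 19.2, 18.8 and 18.0 FPKM in AAV-GFP. Its groups did not overlap either, at a difference of 0.25 (SE 0.0760, adjusted p = 0.381). Mrpl2, the counterpart of L2 in the catalytic core, had 20.8, 23.1 and 20.9 FPKM in AAV-TKT, against 18.0, 15.6 and 19.5 FPKM in AAV-GFP. Its AAV-TKT libraries were all above its AAV-GFP libraries, and the difference was 0.28 (SE 0.0945, adjusted p = 0.412). Mrpl18 was the last of the Mrpl genes with separate groups, with a difference of 0.21 (adjusted p = 0.471). Mrpl46 and Mrpl28, at 0.22 and 0.21, overlapped between the groups.

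Among the small-subunit genes, Mrps14, counterpart of S14, had 19.9, 23.2 and 22.0 FPKM in AAV-TKT, against 19.6, 18.8 and 15.995 FPKM in AAV-GFP. The lowest AAV-TKT library lay just above the highest AAV-GFP library, and the difference was 0.25 (SE 0.0975, adjusted p = 0.449). Mrps26, of mitochondria alone, had 24.1, 25.6 and 23.1 FPKM in AAV-TKT, against 22.7, 20.8 and 20.8 FPKM in AAV-GFP. The groups were separate at a difference of 0.17 (SE 0.0726, adjusted p = 0.469). Mrps27, which encodes a pentatricopeptide repeat protein, was separate as well at 0.17 (SE 0.0834, adjusted p = 0.501). Mrps16, counterpart of S16, was the 1 gene of the family lower in every AAV-TKT library, with 11.0, 11.6 and 12.2 FPKM, against 12.7, 12.55 and 13.2 FPKM in AAV-GFP. Its difference was -0.13 (SE 0.0717, adjusted p = 0.526). Mrps15 and Mrps25, at 0.17 and 0.25, overlapped between the groups.

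**Figure D2:**
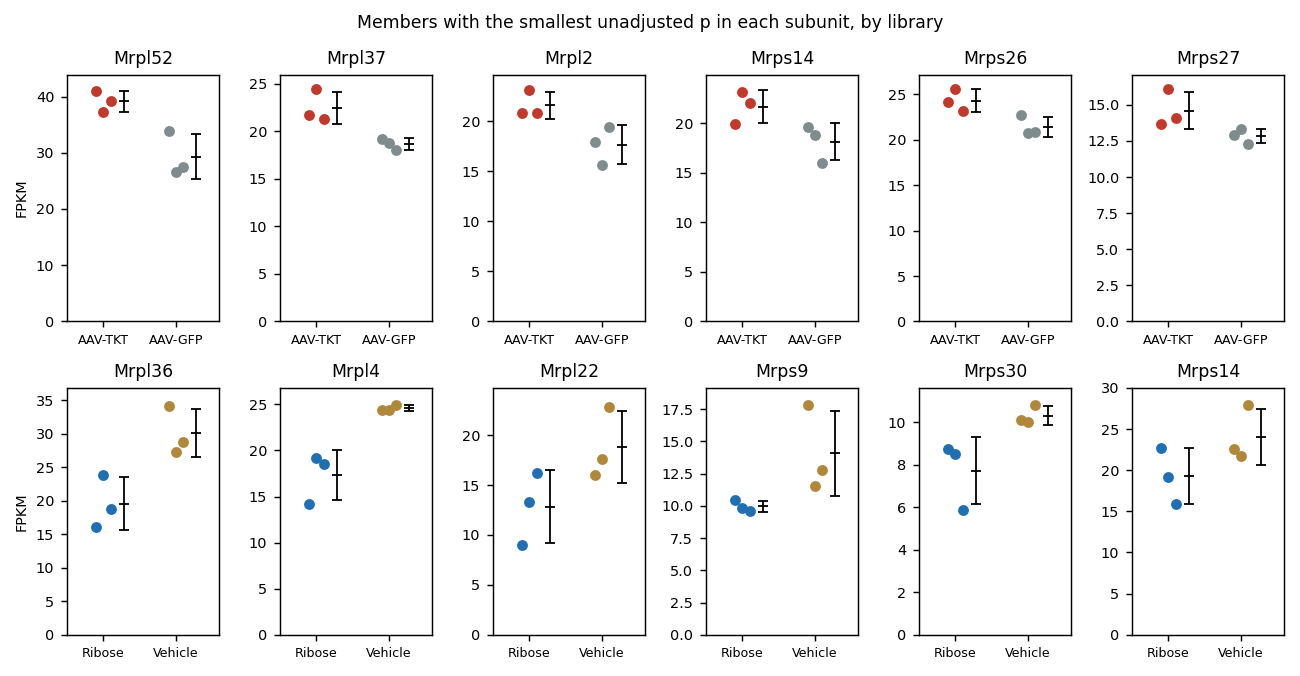
FPKM by library of the 3 Mrpl and 3 Mrps genes with the smallest unadjusted p in AAV-TKT against AAV-GFP (upper row) and in Ribose against Vehicle (lower row), with mean and SD in black. In the upper row all 6 genes have separate groups, and in the lower row Mrpl22 and Mrps14 overlap; no gene passed the adjusted threshold.

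Whole libraries differed over the family. The summed level of Mrpl was 899, 1067 and 1006.5 FPKM in AAV-TKT, against 999, 894 and 886 FPKM in AAV-GFP. That of Mrps was 515.5, 642 and 595 FPKM in AAV-TKT, against 590, 544 and 537 FPKM in AAV-GFP. AAV-TKT replicate 2 was the highest of the 6 libraries in both subunits, and AAV-TKT replicate 1 was below AAV-GFP replicate 1 in both, so the groups overlapped. AAV-TKT replicate 2 held the highest value for 28 of 49 Mrpl and 18 of 29 Mrps genes.

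That library also had the highest pan-neuronal sum (5090 FPKM) and the lowest sums of satellite glia markers (649 FPKM) and of the 13 mitochondrially encoded mRNAs (2251 FPKM). Between the groups, pan-neuronal markers summed to 4409 to 5090 FPKM in AAV-TKT, against 3808 to 4351 FPKM in AAV-GFP, and those of large-diameter neurons (6 of 6 listed) to 1098 to 1250.2 FPKM, against 889.6 to 995.5 FPKM. Single markers differed in direction, and each of these lists held 3 genes with separate groups on the higher side and 1 on the lower side. Nociceptor markers (6 of 6 listed) overlapped, with sums of 1965 to 2826 FPKM in AAV-TKT, against 2182 to 2235 FPKM in AAV-GFP. Schwann cell markers (5 of 6 listed, none of these at 0) summed to 345 to 375 FPKM in AAV-TKT, against 410.01 to 435 FPKM in AAV-GFP. Markers of macrophages summed to 12.3 to 18.3 FPKM in AAV-TKT, against 33.6 to 45.8 FPKM in AAV-GFP, with 5 of 7 listed and none of these at 0. Those of neutrophils (6 of 6 listed) summed to 18.5 to 28.8 FPKM, against 89.3 to 241 FPKM, and those of red cells (5 of 5) to 71.5 to 94.2 FPKM, against 113 to 471 FPKM. None of the 5 endothelial markers was listed in the AAV table. The part of these cell markers in the differences was not tested.

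**Figure D3:**
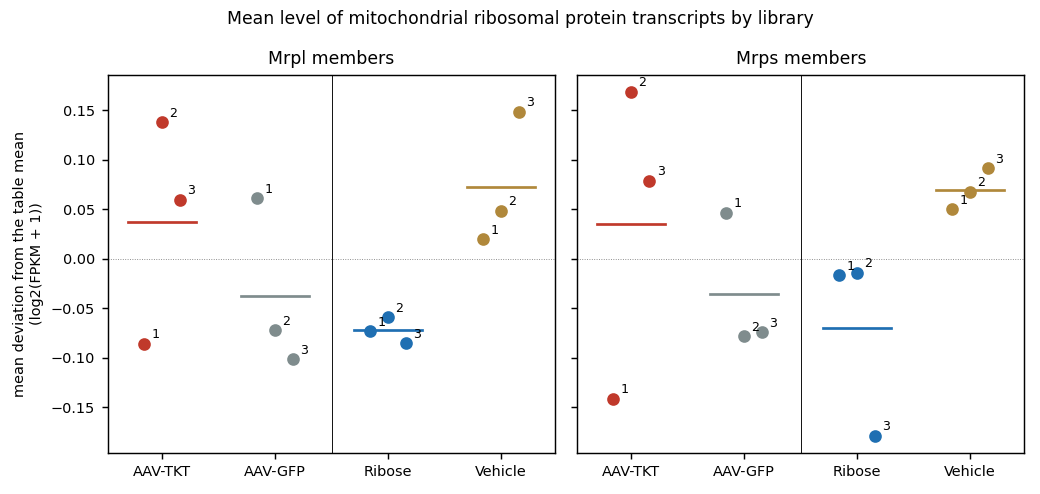
Mean deviation of the Mrpl (left) and Mrps (right) genes from their mean over the 6 libraries of a table, on the log2(FPKM + 1) scale, with 1 numbered point per library and a bar at the group mean. AAV-TKT replicate 2 is the highest and replicate 1 lies among or below the AAV-GFP libraries, whereas the Ribose libraries lie below all Vehicle libraries.

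The second comparison asked the same of ribose. No gene of the family passed an adjusted p of 0.05 in limma, where 0.00724% of all genes tested did (1 of 13804), and the lowest adjusted p was 0.913. The lean was to lower values, with 36 of 48 Mrpl and 24 of 29 Mrps negative, against 55.2% of all genes, and 12 and 5 positive, against 44.8%. The median log2 difference was -0.13 for Mrpl and -0.10 for Mrps, against -0.023 over all genes, and both stayed negative under each of the scalings tried. The gene with the smallest p was Mrpl36, counterpart of the small bacterial protein L36.

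At an unadjusted p under 0.05, 3 genes were on the lower side, 3.9% of the fitted genes, against 1.99% of all genes, and 0 on the higher side, against 2.8%. All 3 Ribose libraries were below all Vehicle libraries in 8 genes, against 5.35% of all genes, and above them in 1 gene, Mrpl3, against 4.28%. The count of 8 is 10.4% of the 77 genes fitted.

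Mrpl36 had 16.1, 23.9 and 18.8 FPKM in Ribose, against 34.2, 27.4 and 28.8 FPKM in Vehicle. The Ribose libraries were all below the Vehicle libraries, at a log2 difference of -0.61 (SE 0.171, unadjusted p = 0.00883, adjusted p = 0.913), a ratio of means of 0.651. Mrpl4, the counterpart of L4, which lines the peptide tunnel, had 14.2, 19.2 and 18.5 FPKM in Ribose, against 24.40, 24.43 and 24.98 FPKM in Vehicle. Its 3 Vehicle libraries were nearly equal and all above the Ribose libraries, at -0.50 (SE 0.146, adjusted p = 0.913). Mrpl22, whose bacterial counterpart also lines the tunnel, had 8.98, 13.3 and 16.2 FPKM in Ribose, against 16.04, 17.6 and 22.9 FPKM in Vehicle. Ribose replicate 3 and Vehicle replicate 1 overlapped by a small margin, at a difference of -0.54 (SE 0.233, adjusted p = 1.0).

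Mrpl40, of mitochondria alone, had 7.79, 7.03 and 8.40 FPKM in Ribose, against 9.56, 9.63 and 11.2 FPKM in Vehicle. The groups were separate at -0.35 (SE 0.153, adjusted p = 1.0). Mrpl24 and Mrpl30 were separate on the lower side too, with differences of -0.20 and -0.17. Mrpl58, a release factor built into the large subunit, and Mrpl21 overlapped between the groups at -0.27 and -0.38. Mrpl3, counterpart of L3, had 26.4, 25.6 and 24.0 FPKM in Ribose, against 19.6, 23.1 and 23.3 FPKM in Vehicle, and the difference was 0.20 (SE 0.123, unadjusted p = 0.149).

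Mrps9, counterpart of S9, had 10.5, 9.83 and 9.60 FPKM in Ribose, against 17.8, 11.6 and 12.8 FPKM in Vehicle. The groups were separate, with Vehicle replicate 1 far above the others, at -0.44 (SE 0.183, adjusted p = 1.0). Mrps30 had 8.75, 8.53 and 5.90 FPKM in Ribose, against 10.1, 10.0 and 10.8 FPKM in Vehicle. The groups were separate at -0.39 (SE 0.183, adjusted p = 1.0). Mrps26 had 16.7, 24.9 and 23.4 FPKM in Ribose, against 25.1, 26.5 and 27.9 FPKM in Vehicle, and was the third Mrps gene with separate groups, at -0.29. Mrps14 and Mrps35 overlapped at -0.31 and -0.49. Mrps35 had the widest spread of these, with 8.04, 3.28 and 4.20 FPKM in Ribose, against 10.4, 3.93 and 8.89 FPKM in Vehicle.

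The summed level of Mrpl was 1040, 1026 and 1034 FPKM in Ribose, against 1085, 1091 and 1183 FPKM in Vehicle. The groups did not overlap. That of Mrps was 620, 654 and 571 FPKM in Ribose, against 622, 684 and 674 FPKM in Vehicle, and Ribose replicate 2 lay above Vehicle replicate 1. Genes listed at 0 made up 13.9%, 11.5% and 14.5% of the Ribose libraries, against 11.0%, 7.96% and 5.76% of the Vehicle libraries. Schwann cell markers summed to 406 to 486 FPKM in Ribose, against 532 to 593 FPKM in Vehicle, with 6 of 6 listed. Ribose replicate 2 had the lowest sums of satellite glia markers (269 FPKM) and macrophage markers (5.00 FPKM, with 3 of 7 at 0). Other sums were uneven within both groups and overlapped between them. Markers of large-diameter neurons summed to 719, 495 and 780 FPKM in Ribose, against 773, 385 and 972 FPKM in Vehicle. Those of neutrophils summed to 108, 11.1 and 74.8 FPKM, against 27.0, 153 and 31.2 FPKM. Those of red cells summed to 226, 14.4 and 213 FPKM, against 73.5, 209 and 75.1 FPKM. The part of these measures in the differences was not tested.

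The difference between the 2 effects, that of AAV-TKT minus that of Ribose, was tested in 1 fit over all 12 libraries. No gene of the family passed an adjusted p of 0.05, where 0.00778% of all genes did, and the lowest adjusted p was 0.523. The difference was positive in 41 of 48 Mrpl and 25 of 29 Mrps genes, against 58.6% of all genes, with medians of 0.22 and 0.15 against 0.053. At an unadjusted p under 0.05, 7 genes were on the higher side, 9.09% of the fitted genes, against 4.22% of all genes. On the lower side there were 0, against 2.62% of all genes, and in either direction 7, against 6.85%.

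Mrpl36 had the smallest p, at a difference of 0.73 (SE 0.188, unadjusted p = 0.0024, adjusted p = 0.523). Its level in the AAV experiment was 19.04, 21.2 and 20.997 FPKM in AAV-TKT, against 19.3, 18.3 and 18.4 FPKM in AAV-GFP. These groups overlapped, at a difference of 0.12, so most of the 0.73 came from the ribose experiment. By p, Mrpl37 and Mrpl4 were the next Mrpl genes, at 0.40 and 0.60 (adjusted p = 0.669 and 0.687). By size, Mrps35 had the largest difference at 0.92, with the wide spread given above (SE 0.588, adjusted p = 0.822). Among Mrps, the differences were 0.56 for Mrps14, 0.47 for Mrps26 and 0.50 for Mrps30 (adjusted p = 0.687, 0.69 and 0.69). Mrps14 was at 0.25 in AAV-TKT and -0.31 in Ribose, Mrps26 at 0.17 and -0.29, and Mrps30 at 0.11 and -0.39.

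By sign, 41 of 77 genes were positive in AAV-TKT and negative in Ribose, against 32% of all genes. The lean of each experiment, given above, already places many genes in this class, so the count shows no opposition gene by gene. Another 16 were positive in both, 19 negative in both and 1 the reverse. The 2 sets of differences, which share no library, had a Spearman rho of 0.052 over the 77 genes.

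**Figure D4:**
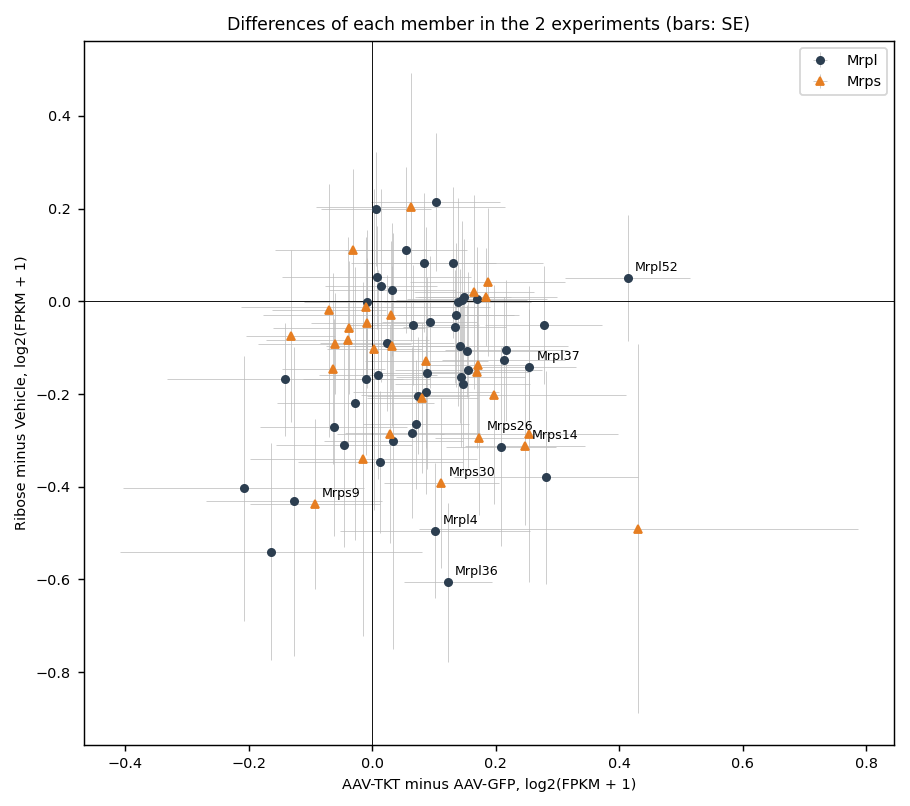
Log2(FPKM + 1) differences of each fitted gene in AAV-TKT against AAV-GFP (horizontal) and Ribose against Vehicle (vertical), with SE as bars; circles are Mrpl and triangles Mrps. The lower right part holds 41 of the 77 genes, and Mrpl36 and Mrpl4 lie lowest among the labelled genes.

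Other genes that serve the same ribosome were set beside the family. Of the lists named here, no gene passed the adjusted threshold in either experiment. The 5 ribosomal proteins with other names had a median difference of 0.11 in AAV-TKT (4 of 5 positive) and -0.015 in Ribose (2 of 5 positive). Dap3, a GTP-binding small-subunit protein, had 49.2 ± 3.15 FPKM in AAV-TKT and 44.1 ± 2.21 FPKM in AAV-GFP (SD, n = 3 each), a difference of 0.15. Aurkaip1, also of the small subunit, differed by 0.12 in AAV-TKT and had 39.0 ± 4.73 FPKM in Ribose and 49.1 ± 0.683 FPKM in Vehicle, a difference of -0.33 with separate groups. Gadd45gip1, of the large subunit, was separate on the other side in Ribose at 0.28.

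Factors that assemble the ribosome or modify its RNA had a median of 0.047 in AAV-TKT (18 of 25 positive) and 0.035 in Ribose (14 of 25 positive). Mrm2 and Mrm3, methyltransferases of the large ribosomal RNA, were separate on the higher side in AAV-TKT at 0.31 and 0.20. Malsu1, an assembly factor of the large subunit, was separate on the lower side in Ribose at -0.60, with 6.21 ± 1.43 FPKM against 9.80 ± 0.534 FPKM in Vehicle. Ddx28, a helicase of large-subunit assembly, was on the higher side at 0.45.

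Translation factors had a median of 0.086 in AAV-TKT (12 of 15 positive) and -0.0033 in Ribose (7 of 15 positive). Tufm and Gfm1, the elongation factors that bring tRNAs and move the ribosome, were separate on the higher side in AAV-TKT at 0.18 and 0.19. Tufm had 34.6 ± 0.916 FPKM in AAV-TKT and 30.4 ± 0.723 FPKM in AAV-GFP. In Ribose, Mtif2, an initiation factor, was separate at 0.43, whereas Tsfm, an elongation factor, overlapped at -0.31.

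Aminoacyl-tRNA synthesis had medians of 0.061 in AAV-TKT (14 of 22 positive) and -0.040 in Ribose (10 of 22 positive). Nars2 and Sars2, which charge tRNAs with asparagine and serine, were separate on the higher side in AAV-TKT at 0.44 and 0.26. In Ribose, Kars, the lysyl-tRNA synthetase of cytoplasm and mitochondria, was separate at -0.24. Lars2, the leucyl-tRNA synthetase, had 196.9 ± 253 FPKM in Ribose and 21.2 ± 12.1 FPKM in Vehicle, with overlap. This list summed to 792 FPKM in Ribose replicate 1, against 400 and 321 FPKM in replicates 2 and 3. Replicate 1 also had the highest sum of mitochondrial ribosomal RNAs in that experiment, 313 FPKM. Sequence shared with other genes was checked for Mrpl and Mrps genes alone, so the level of Lars2 is uncertain. Mitochondrial transcription and RNA stability had medians of -0.0022 in AAV-TKT and -0.014 in Ribose. There, Fastk was separate at 0.26 in AAV-TKT and Polrmt, the mitochondrial RNA polymerase, overlapped at 0.27, while in Ribose Mterf1a was separate at -0.76 and Slirp overlapped at -0.64.

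The nuclear regulators had medians of 0.030 in AAV-TKT and -0.0010 in Ribose. Ppargc1b, a coactivator of mitochondrial genes, was separate at 0.17 in AAV-TKT and overlapped at 0.39 in Ribose. Esrra overlapped at 0.15 in AAV-TKT, and Gabpa, which encodes the GABP subunit that binds the ETS motif, was separate at 0.42 in Ribose, with 8.70 ± 1.58 FPKM against 6.19 ± 0.592 FPKM in Vehicle. The messages that this ribosome reads are the 13 mitochondrially encoded mRNAs. Their median was -0.35 in AAV-TKT (12 of 13 negative) and -0.25 in Ribose (11 of 13 negative). By the order of the libraries, 0 of the 13 had separate groups in AAV-TKT and 1 did in Ribose. Their sums overlapped, with 2251 to 4688 FPKM in AAV-TKT, against 3943 to 6609 FPKM in AAV-GFP. In the ribose experiment they were 1170 to 4031 FPKM in Ribose, against 2065 to 3314 FPKM in Vehicle. mt-Co1, a subunit of cytochrome c oxidase, had 604 ± 199 FPKM in AAV-TKT and 909 ± 202 FPKM in AAV-GFP, and mt-Atp6, a subunit of ATP synthase, had 163 ± 93.6 FPKM in Ribose and 380 ± 45.5 FPKM in Vehicle. The AAV-TKT and AAV-GFP libraries overlapped for mt-Co1, and the Ribose libraries were all below the Vehicle libraries for mt-Atp6. These libraries were made from polyadenylated RNA.

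**Figure D5:**
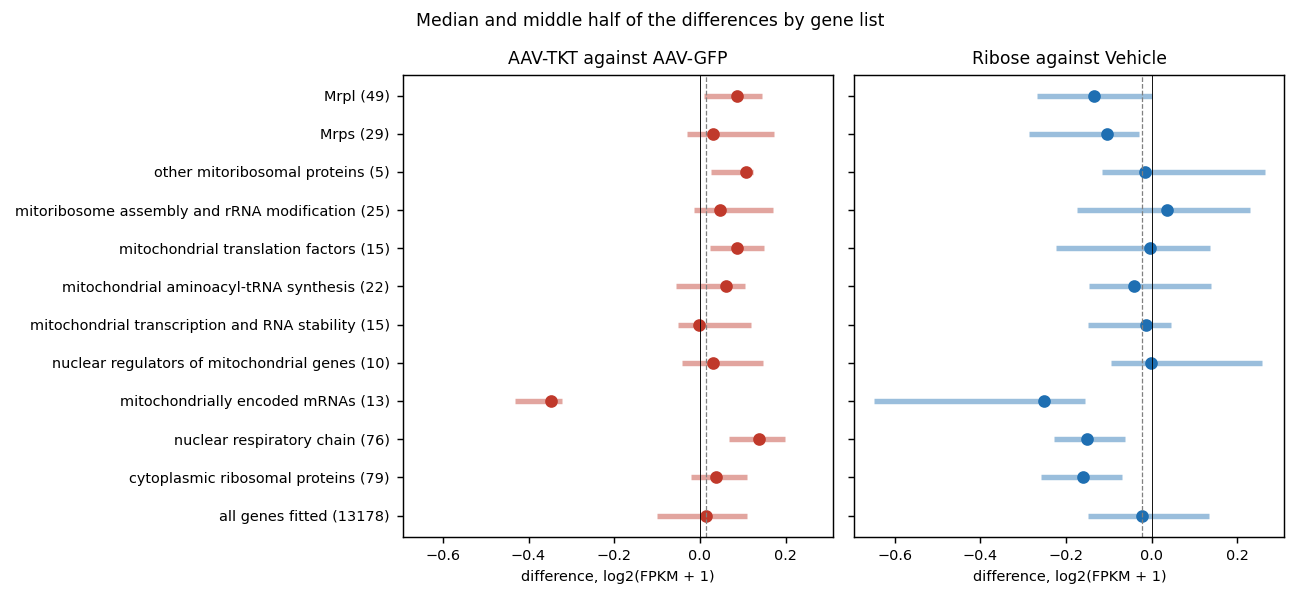
Median (point) and middle 50% (bar) of the log2(FPKM + 1) differences in each gene list, with the number of genes fitted in the AAV table in brackets; the dashed line marks the median of all genes. Mrpl and Mrps lie right of the dashed line in AAV-TKT against AAV-GFP and left of it in Ribose against Vehicle, as do the nuclear respiratory chain and cytoplasmic ribosomal proteins.

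The same lean was present in 2 large families that resemble this one. The nuclear genes of the respiratory chain had a median of 0.14 in AAV-TKT (68 of 76 positive) and -0.15 in Ribose (8 of 76 positive). Ndufa13 and Cox6a1, subunits of complexes I and IV, were separate on the higher side in AAV-TKT at 0.33 and 0.36, and Ndufs5 and Ndufs4 of complex I on the lower side in Ribose at -0.44 and -0.50. The cytoplasmic ribosomal proteins had a median of 0.038 in AAV-TKT (52 of 79 positive) and -0.16 in Ribose (10 of 80 positive). Rpl38 was separate in both, at 0.32 in AAV-TKT and -0.69 in Ribose, Rpl10 was at -0.52 in AAV-TKT, and Rps27l was at -1.06 in Ribose. The difference between the 2 effects had medians of 0.26 and 0.21 in these families, beside 0.22 for Mrpl and 0.15 for Mrps. No list was tested against another.

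The medians were also taken by origin, with mitochondria alone meaning any gene not listed with a bacterial counterpart. Among Mrps that class includes Mrps36, named above as part of another complex, and Mrps18a and Mrps18b, relatives of Mrps18c in the other class. In AAV-TKT they were 0.097 for Mrpl with a bacterial counterpart and 0.070 for Mrpl of mitochondria alone, and 0.016 and 0.088 for Mrps. In Ribose they were -0.16 and -0.096 for Mrpl, and -0.090 and -0.14 for Mrps. Mrpl10, Mrpl11 and Mrpl12, which form the stalk that recruits translation factors, ranged from 0.14 to 0.15 in AAV-TKT and from -0.16 to 0.010 in Ribose.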

How the data were processed

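Polyadenylated RNA was made into stranded libraries, per the labels' protocols. Reads were handled with bcl2fastq 2.20, FastQC and Trim Galore and referred to GRCm38, per the submitters' processing notes. No source used here names the aligner, the counter or the annotation. The authors deposited FPKM values, 1 table per experiment. The AAV table lists no gene with a mean under 1 FPKM, and median-of-ratios factors were equal in all 6 ribose libraries (1.01) and 0.975 to 1.02 in the AAV libraries, so the 2 tables were scaled differently and no level was tested across them. Columns with control names in the ribose table were taken as Vehicle.

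Symbols came from GENCODE M21 (13170 of 13178 and 21612 of 21650 identifiers). Groups were compared on log2(FPKM + 1), which understates changes of low genes, where the mean over a table was 1 FPKM or more, with limma 3.58.1 (R 4.3.3, intensity trend, Benjamini-Hochberg over all genes, threshold 0.05, two-sided). The script was tested on simulated data. An exact test of 3 against 3 libraries cannot go below 0.1, so none is given. Members and lists were chosen with earlier results of these data known. Named were the 6 Mrpl and 6 Mrps genes with the smallest p per comparison, 3 per subunit for the difference of effects, the 3 highest and lowest by control level, the Mrps18 genes, genes not fitted, and 2 genes per other list. Genes singled out beyond this rule were Mrpl3, Mrpl24 and Mrpl30 (separate groups), the stalk genes, and Mrps35 for the size of its difference of effects. Alternatives were other pseudocounts, filters and scalings, no trend, a replicate block, each library left out, and protein-coding genes alone (added after seeing the data). Protein sequences were not used here.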

Additional observations from a re-analysis of the deposited data

How the results depend on the processing

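The 30 gene results kept their direction and their side of the threshold in all 516 recomputed values over 22 settings, with adjusted p-values of at least 0.118. These genes were named for the smallest p in the same libraries, and none was near the threshold with all libraries. A kept direction and side were therefore likely from the start. The number of Mrpl and Mrps genes called in limma was 0 in each setting, including every omission of a library. Over all genes the calls in AAV-TKT against AAV-GFP ranged from 1 to 40 when a library was left out, with 40 without AAV-GFP replicate 2, against 2 with all libraries, and were 8 with protein-coding genes alone. With the replicate number as a block, 0 genes of the family were called (0 of all genes in the AAV table and 1 in the ribose table). With that block, the lowest adjusted p of the family in limma was 0.352 in the AAV table, against 0.378 without it. In the ribose table it was 0.588, against 0.913. Same-numbered libraries correlated by 0.033, 0.071 and -0.014 in their deviations in the AAV table. In the ribose table the values were 0.042, 0.36 and 0.16, each positive. The labels give replicate numbers and name no pairs, so the main fits used none. Whether same-numbered ribose libraries shared a source is unknown. With a library left out, the AAV medians ranged from 0.027 to 0.148 for Mrpl and from -0.035 to 0.154 for Mrps, lowest without AAV-TKT replicate 2 and highest without AAV-TKT replicate 1 in both. The ribose medians ranged from -0.142 to -0.072 for Mrpl, with -0.072 without Vehicle replicate 3, and from -0.192 to -0.052 for Mrps, with -0.192 without Vehicle replicate 1. Genes of the family with separate groups on the higher side in AAV-TKT numbered 28 without AAV-TKT replicate 1 and 22 without AAV-GFP replicate 1, against 7 with all libraries, and 7 to 10 without any other library. On the lower side in Ribose they numbered 21, 13 and 17 without Ribose replicates 1, 2 and 3 and 19, 15 and 8 without Vehicle replicates 1, 2 and 3, against 8 with all libraries. Leaving out a library can raise such a count or keep it, but cannot lower it. Read depth is unknown, which limits what can be said of low genes such as Mrpl23.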
